A study of Mus musculus with 13 samples.

Results

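Pericytes and vascular smooth muscle cells are the mural cells of blood vessels, and their marker genes were followed here through hearts carrying a cardiomyopathy change and hearts treated with a myosin inhibitor. The 9 genes are 5 pericyte markers (Cspg4, Notch3, Pdgfrb, Rgs5 and Abcc9) and 4 smooth muscle markers (Myh11, Tagln, Cnn1 and Myl9). They were found by matching the Ensembl IDs of the deposited count table to these symbols, which gave 9 of 55471 genes, and all 9 were among the 15000 genes that passed the filter on low counts. The rule that picks them uses symbols and no measured value, but the members were chosen with earlier results of these data known. Bulk RNA-seq covered 13 libraries of whole mouse heart in 3 groups. WT control (n = 5) was untreated wild type. R502W control (n = 4) was untreated and carried the R502W substitution in Mybpc3, the gene of cardiac myosin-binding protein C, which sits on the thick filament. R502W mavacamten (n = 4) carried the same change and received mavacamten, a small-molecule inhibitor of cardiac myosin, at 2.5 mg/kg/day in the drinking water for 21 weeks. Age is unclear, since the series' design puts the mice at 24 weeks and the extraction protocol speaks of hearts of 3 and 18 weeks. Zygosity and strain are not stated in the labels, and no WT group received the drug.

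Pericytes lie on capillaries inside the basement membrane they share with the endothelium, and smooth muscle cells ring arteries and arterioles. Endothelial PDGF-B acting on the receptor Pdgfrb draws mural cells to new vessels, and Notch signals from the endothelium to Notch3 support their maturation. In smooth muscle cells, serum response factor (Srf) binds CArG boxes near contractile genes such as Myh11, Tagln and Cnn1 and, with its partner myocardin (Myocd), drives their transcription.

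Library totals lay between 15350622 and 19361103 expected counts. All 13 libraries held strong cardiomyocyte signal, with 8 markers summing to between 35603 and 69133 CPM (counts scaled to a common library size). The 8 airway and lung markers summed to 391 CPM in WT control 2, 621 in WT control 3, 157 in R502W mavacamten 1 and 26.1 in R502W mavacamten 4, and to at most 4.40 CPM elsewhere. T cell and thymus markers summed to 424 CPM in WT control 2 and to at most 6.76 CPM in the other libraries. The atrial gene Bmp10 was under 10 CPM in WT control 3, R502W control 1 and R502W mavacamten 3 and at least 307 CPM in the others. Calls and directions that change without these libraries are given with and without them. Whether every library is a different mouse is not stated in the labels, and p-values here reflect library-to-library spread, which may be technical.

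Each marker was detected in every library. Beyond the 9, the pericyte markers Kcnj8, Vtn and Higd1b and the smooth muscle markers Acta2, Lmod1, Smtn and Mylk were detected in every library too. Levels per kilobase of exon (mean CPM per kb ± SD in WT control, n = 5) allow the genes to be ordered. Myl9, at 82.2 ± 17.9, and Rgs5, at 67.3 ± 8.66, stood at the top and differed by less than the larger of their SDs. Tagln at 41.6 ± 18.8 and Abcc9 at 32.5 ± 11.2 came next and likewise did not separate. Pdgfrb at 13.1 ± 1.87 and Myh11 at 11.8 ± 5.61 formed the next pair within one SD. Notch3 at 5.99 ± 1.04 and Cnn1 at 5.00 ± 2.45 also lay within one SD of each other, and Cspg4, at 2.47 ± 0.407, was the lowest. Gaps between these pairs exceeded the larger SD. In R502W control Rgs5 led at 76.8 ± 5.42 and Cnn1, at 2.46 ± 1.59, was the lowest, within one SD of Cspg4 at 3.89 ± 0.525. In R502W mavacamten every gap between neighbours in the order was smaller than the larger SD.

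Cspg4, a chondroitin sulfate proteoglycan on the surface of pericytes and of immature mural cells, and Notch3, the mural cell Notch receptor, rose in R502W hearts. No other member was called in any of the 3 comparisons (adjusted p under 0.05 in edgeR, all 13 libraries in the fit). Cspg4 (ENSMUSG00000032911, chromosome 9, 56865033 to 56899870 of GRCm38, plus strand) read 24.8, 24.8, 33.9, 28.9 and 35.0 CPM in WT control 1 to 5. It read 53.8, 48.0, 45.3 and 38.7 CPM in R502W control 1 to 4, and 39.3, 38.6, 40.2 and 45.1 CPM in R502W mavacamten 1 to 4. All 8 R502W libraries, treated or not, lay above the highest WT library, and both R502W groups overlapped each other. The means were 29.5 ± 4.86 CPM (SD, n = 5), 46.5 ± 6.26 (n = 4) and 40.8 ± 2.93 (n = 4). R502W control was 1.58-fold higher than WT control (95% confidence interval 1.32 to 1.89), a log2 fold change of 0.66 ± 0.12 (SE) with an adjusted p of 0.00463 in edgeR's quasi-likelihood test. R502W mavacamten was 1.38-fold higher than WT control (1.16 to 1.66), at 0.47 ± 0.12 on the log2 scale with an adjusted p of 0.0336 in edgeR.

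Notch3 (ENSMUSG00000038146, chromosome 17, 32120820 to 32166852 of GRCm38, minus strand) read 47.1, 37.0, 50.4, 47.5 and 60.4 CPM in WT control 1 to 5. Its R502W control libraries read 67.0, 68.6, 79.0 and 72.0 CPM, and its R502W mavacamten libraries 75.5, 73.3, 71.1 and 56.0 CPM. Untreated R502W hearts all lay above every WT heart, while 1 treated heart, R502W mavacamten 4, fell inside the WT range. R502W control was 1.48-fold higher than WT control (95% confidence interval 1.23 to 1.78), a log2 fold change of 0.56 ± 0.12 with an adjusted p of 0.0115 in edgeR. R502W mavacamten was 1.42-fold higher than WT control (1.18 to 1.71), at 0.51 ± 0.12 with an adjusted p of 0.0275 in edgeR. Both comparisons use the same WT libraries, so their calls are not independent of each other.

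These 2 calls among 9 members stand against the calls over all genes. In R502W control against WT control, 8.63 percent of the 15000 genes were called higher and 3.75 percent lower, and 12.3 percent had every R502W control library above every WT library. In R502W mavacamten against WT control, 5.93 percent were called higher and 2.29 percent lower, and 8.54 percent had all treated libraries above all WT libraries. No member was called lower in either comparison. The median log2 fold change over all 15000 genes was -0.01 and 0.00, over the 5 pericyte members 0.31 and 0.40, and over the 4 smooth muscle members -0.77 and -0.21. Over 8 pericyte markers, which add Kcnj8, Vtn and Higd1b to the members, it was 0.19 and 0.14. The medians of 0.31 and 0.40 are the values of Pdgfrb and Abcc9, neither of them called. The sets also differ in exonic length. The pericyte members are longer than 53.5% to 94.4% of the genes tested. Tagln, Cnn1 and Myl9 are longer than 14.9%, 26.4% and 4.87%, and Myh11 than 80.9%. The part of length in these medians was not tested.

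The call of Cspg4 in R502W control against WT control held in all 11 other settings of scaling, filter, tool and library choice and in each of 13 fits with 1 library left out, and that of Notch3 in 10 and 13. Without the 3 libraries low in Bmp10, Notch3 stood at 0.58 with an adjusted p of 0.0767 in edgeR. In treated hearts against WT, the call of Cspg4 held in 4 of 11 settings and 5 of 13 fits with 1 library left out (0.38 to 0.54 on the log2 scale), and that of Notch3 in 8 and 8 (0.39 to 0.60). Cspg4 lost this call without WT control 1, 2 or 4, R502W control 2 or any 1 of the 4 treated libraries, and Notch3 without WT control 1, R502W control 2 or R502W mavacamten 1, 2 or 3.

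Log2 fold changes also rose with transcript length, and some markers of endothelium and heart muscle were called higher. Across 14990 genes the log2 fold change rose with exonic length in R502W control against WT control (Spearman's rho 0.34, over genes, which are not independent replicates), and by 0.36 in treated hearts against WT. Cspg4 has 11931 exonic bases, more than 94.4% of the genes tested, and Notch3 has 8089, more than 83.3%. With each library's length trend removed, Cspg4 kept 0.38 ± 0.10 (adjusted p = 0.0359 in edgeR) and Notch3 0.41 ± 0.11 (0.0343) in the genotype comparison. In treated hearts against WT the same correction left Cspg4 at 0.20 ± 0.10 (adjusted p = 0.268 in edgeR) and Notch3 at 0.36 ± 0.11 (0.0816). Among 8 endothelial markers 3 were called higher in R502W control (Kdr, Cldn5 and Vwf) and 1 in treated hearts (Kdr). Of all genes, 8.63 percent and 5.93 percent were called higher in these comparisons. Their summed level was 684 to 925 CPM in WT control, 1063 to 1264 in R502W control and 824 to 1180 in R502W mavacamten, with no marker at 0 in any library. Of 8 cardiomyocyte markers, 3 were called higher in R502W control (Ryr2, Mybpc3 and Ttn) and 4 in treated hearts against WT (those and Myh6). Pln, another of the 8, stood at -0.19 in R502W control against WT control. The sum was 35603 to 52248 CPM in WT control, 55800 to 61354 in R502W control and 50741 to 69133 in treated hearts, again with none at 0. Myh6 alone read 18136 to 40240 CPM. In treated hearts the endothelial and cardiomyocyte sums overlapped those of WT control. The part of length and of these markers in the rise of Cspg4 and Notch3 was not tested beyond the length correction above. Whole-heart RNA does not show which cells the rise of Cspg4 and Notch3 came from. Nor can a change in cell number be told apart from a change in RNA per cell.

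**Figure D1:**
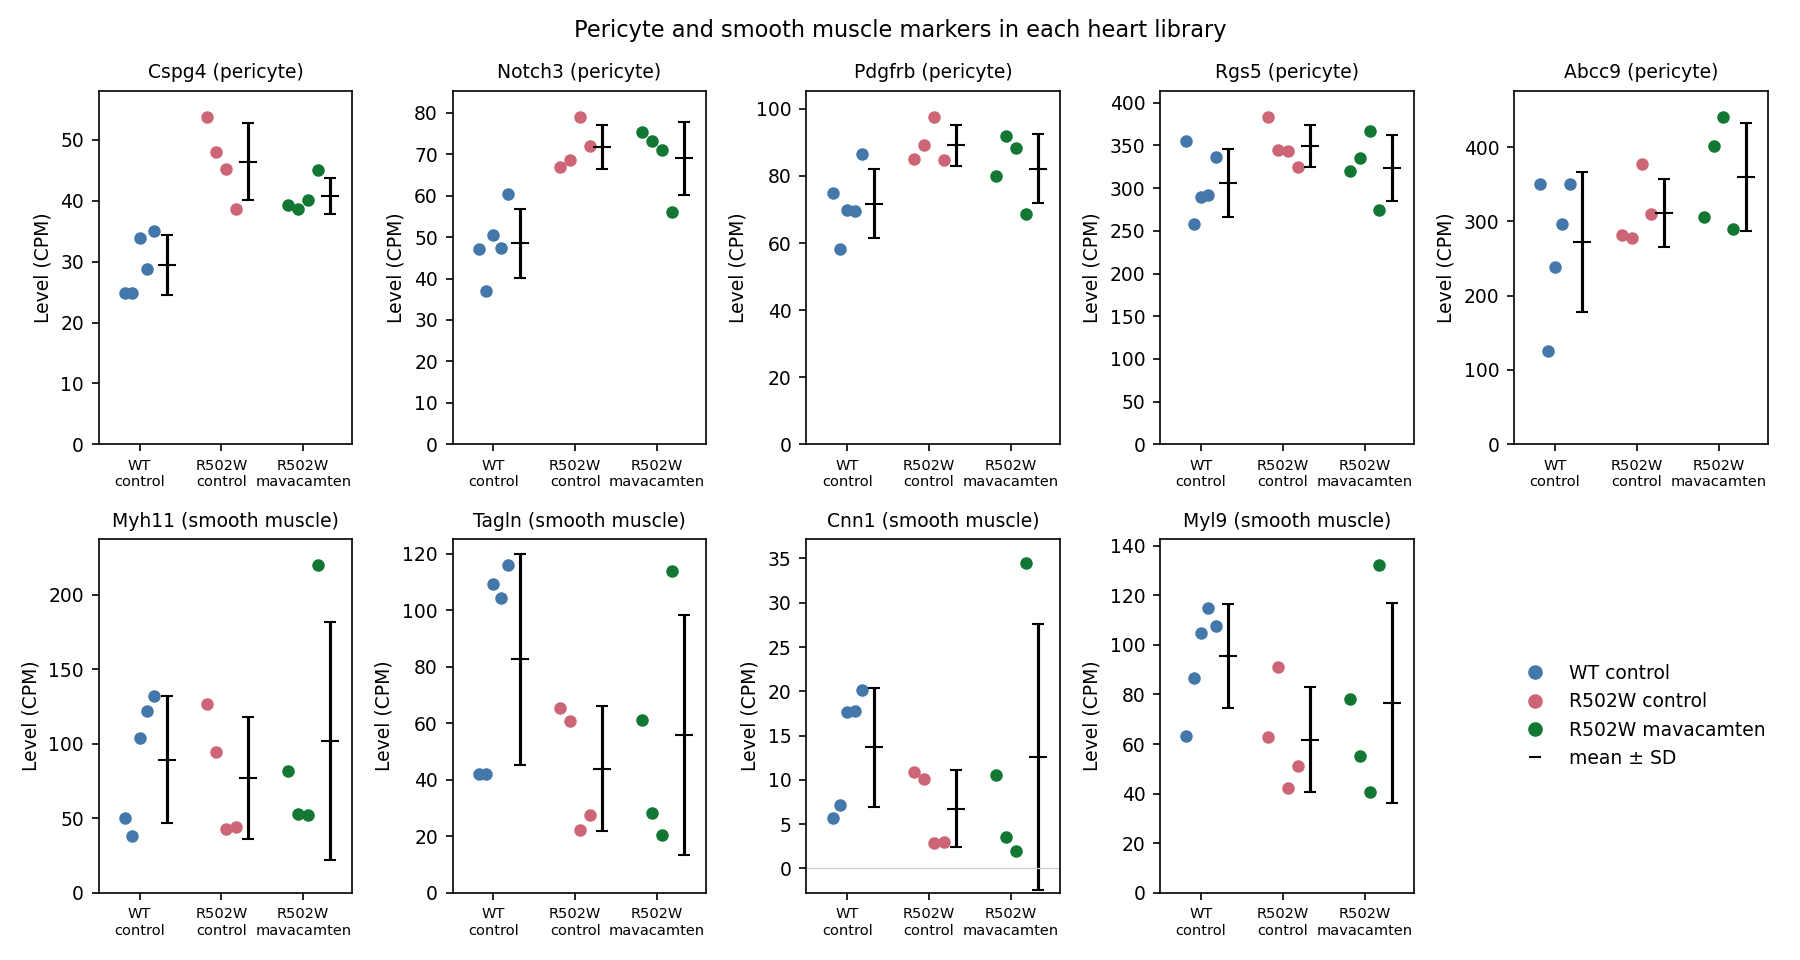
Level of each of the 9 mural cell markers in CPM on TMM-scaled library sizes (vertical axes, linear, a scale per gene) in the 13 libraries, grouped as WT control (5 libraries), R502W control (4) and R502W mavacamten (4). Points are libraries and bars are the mean ± SD. Cspg4 in both R502W groups lies above the WT range of 24.8 to 35.0 CPM, while the smooth muscle markers spread widely within every group.

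**Figure D2:**
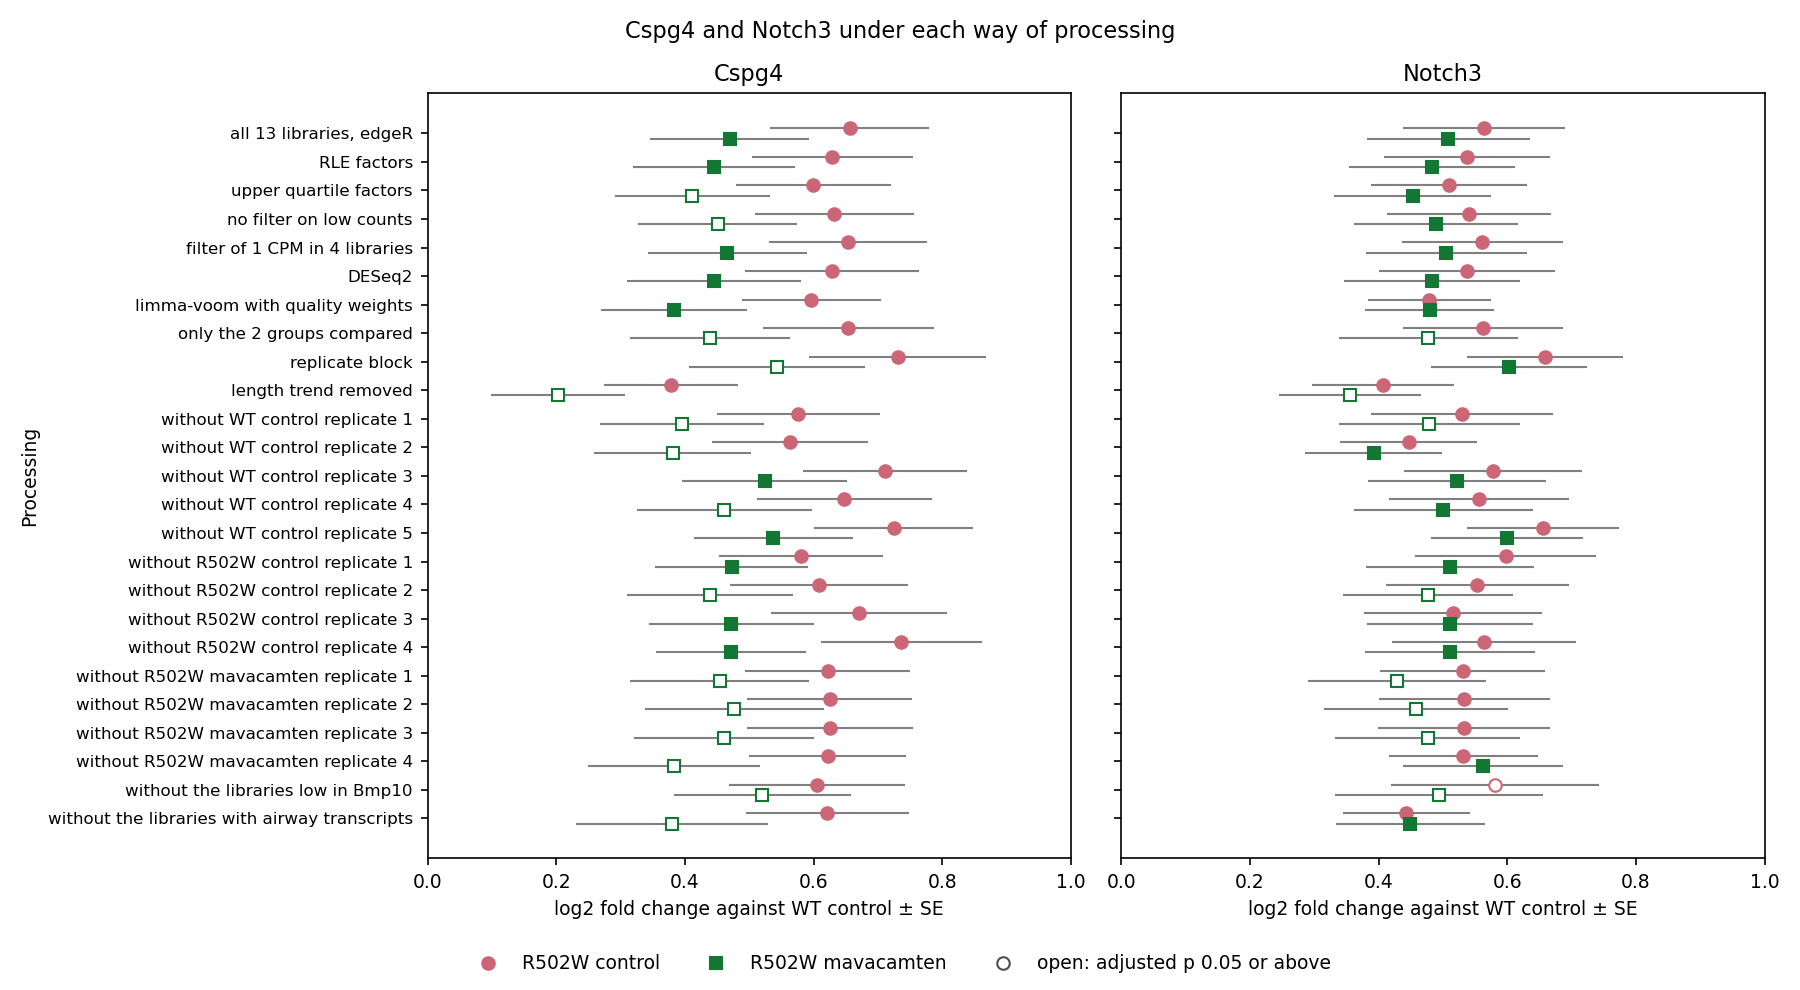
Log2 fold change against WT control ± SE (horizontal axis) of Cspg4 (left) and Notch3 (right) under each way of processing (vertical axis). Circles are R502W control, squares are R502W mavacamten, and open symbols mark an adjusted p of 0.05 or above. Every estimate lies above 0, Cspg4 in R502W control stays filled throughout at 0.38 to 0.74, and many squares are open.

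The other pericyte markers were not called in any comparison. Pdgfrb (ENSMUSG00000024620, chromosome 18, 61045150 to 61085061, plus strand), the PDGF receptor of mural cells, read 74.9, 58.1, 69.8, 69.4 and 86.5 CPM in WT control. It read 85.0, 89.1, 97.7 and 84.6 CPM in R502W control and 79.9, 91.9, 88.3 and 68.6 CPM in R502W mavacamten. WT control 5 lay within the range of R502W control, and the other 4 WT libraries lay below all of its libraries. The log2 fold change of R502W control against WT control was 0.31 ± 0.11 with an adjusted p of 0.0811 in edgeR, and without WT control 5 it was 0.39 with an adjusted p of 0.0335. Treated hearts against WT gave 0.20 ± 0.11 with an adjusted p of 0.291 in edgeR, and from 0.10 without WT control 2 to 0.27 without WT control 5. Without the libraries holding airway transcripts the value for R502W control against WT control was 0.18.

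Rgs5 (ENSMUSG00000026678, chromosome 1, 169655501 to 169695813, plus strand) speeds the switching off of G protein signals and is among the most abundant pericyte transcripts. It read 356, 258, 290, 291 and 336 CPM in WT control, 384, 345, 343 and 325 CPM in R502W control, and 320, 335, 367 and 274 CPM in R502W mavacamten. The groups overlapped throughout, and Rgs5 had the narrowest range of the 9, with its highest library 1.49 times its lowest against a median of 1.82 over 13697 genes of at least 1 CPM. Its log2 fold change was 0.19 ± 0.11 for R502W control against WT control (adjusted p = 0.259 in edgeR) and 0.08 ± 0.11 for treated hearts against WT (adjusted p = 0.671). The first of these was 0.06 without the libraries holding airway transcripts and 0.09 without those low in Bmp10.

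Set against Rgs5 within the same library, Cspg4 and Notch3 had these ranges. Cspg4 CPM was 6.97% to 11.7% of Rgs5 CPM in WT control, 11.9% to 14.03% in R502W control and 10.9% to 16.5% in R502W mavacamten. Untreated R502W hearts thus lay narrowly above WT hearts, at 11.9% against 11.7%, and treated hearts overlapped WT hearts. Notch3 was 13.3% to 18.0% of Rgs5 in WT control, 17.4% to 23.0% in R502W control and 19.4% to 23.6% in R502W mavacamten. Here treated hearts did not overlap WT hearts, and untreated R502W hearts did. Pdgfrb was 21.1% to 25.7%, 22.1% to 28.5% and 24.1% to 27.4% of Rgs5, with all groups overlapping. These ratios are given with no test and with no share of all genes that separate in this way.

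Abcc9 (ENSMUSG00000030249, chromosome 6, 142587862 to 142702315, minus strand) makes the sulfonylurea receptor subunit of ATP-sensitive potassium channels in pericytes and smooth muscle, and heart muscle cells express it too. It read 350, 125, 239, 296 and 351 CPM in WT control, 281, 277, 377 and 310 CPM in R502W control, and 307, 401, 441 and 290 CPM in R502W mavacamten. WT control 2, the library with airway and thymus transcripts, was the lowest by far, and 2 treated hearts were the highest. The log2 fold change was 0.19 ± 0.24 for R502W control against WT control (adjusted p = 0.636 in edgeR) and turned to -0.02 without WT control 2. Treated hearts against WT gave 0.40 ± 0.24 (adjusted p = 0.316 in edgeR), and 0.19 without WT control 2.

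The 4 smooth muscle markers ran high or low together across the libraries of every group, and no comparison called them. Myh11 (ENSMUSG00000018830, chromosome 16, 14194535 to 14291372, minus strand), the smooth muscle myosin heavy chain, read 50.004, 38.4, 104, 122 and 132 CPM in WT control. It read 127, 94.4, 43.0 and 43.9 CPM in R502W control and 81.7, 52.9, 52.1 and 220 CPM in R502W mavacamten. High and low libraries occurred in every group, and R502W mavacamten 4 was the highest of all 13. The log2 fold change of R502W control against WT control was -0.22 ± 0.50 (95% confidence interval -1.28 to 0.85, adjusted p = 0.810 in edgeR). It ranged from -0.56 without R502W control 1 to -0.015 without R502W control 3, and was -0.43 without the libraries holding airway transcripts and -0.53 without those low in Bmp10.

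Tagln (ENSMUSG00000032085, chromosome 9, 45929619 to 45936058, minus strand) makes transgelin, an actin-binding protein of contractile smooth muscle. It read 41.9, 42.0, 109, 104 and 116 CPM in WT control, 65.3, 60.7, 22.2 and 27.6 CPM in R502W control, and 61.1, 28.1, 20.6 and 114 CPM in R502W mavacamten. R502W control 3 and 4 and R502W mavacamten 2 and 3 lay below every WT library, and the other R502W libraries lay inside the WT range. The log2 fold change was -0.91 ± 0.51 for R502W control against WT control (95% confidence interval -2.002 to 0.18, adjusted p = 0.251 in edgeR).

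Cnn1 (ENSMUSG00000001349, chromosome 9, 22099216 to 22109630, plus strand) makes calponin, which binds actin and damps myosin activity in smooth muscle. It read 5.65, 7.20, 17.7, 17.7 and 20.1 CPM in WT control, 10.9, 10.1, 2.93 and 3.00 CPM in R502W control, and 10.5, 3.54, 1.98 and 34.4 CPM in R502W mavacamten. The same 4 R502W libraries as for Tagln lay below every WT library, and R502W mavacamten 4 lay above all others. Its log2 fold change was -1.03 ± 0.71 for R502W control against WT control (95% confidence interval -2.56 to 0.49, adjusted p = 0.359 in edgeR).

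Myl9 (ENSMUSG00000067818, chromosome 2, 156775420 to 156781658, plus strand) makes the regulatory light chain whose phosphorylation switches smooth muscle myosin on. It read 63.3, 86.8, 105, 115 and 108 CPM in WT control, 62.7, 91.2, 42.3 and 51.0 CPM in R502W control, and 78.2, 55.0, 40.6 and 132 CPM in R502W mavacamten. In R502W control 3 of 4 libraries lay below the lowest WT library, while R502W control 2 lay inside the WT range. Its log2 fold change was -0.63 ± 0.31 for R502W control against WT control (95% confidence interval -1.29 to 0.03, adjusted p = 0.195 in edgeR). Against WT control, treated hearts gave 0.19 ± 0.49 for Myh11, -0.56 ± 0.50 for Tagln, -0.11 ± 0.68 for Cnn1 and -0.32 ± 0.31 for Myl9, with adjusted p-values from 0.513 to 0.938 in edgeR. Leaving out R502W mavacamten 4 gave -0.55, -1.20, -1.37 and -0.75, and leaving out R502W mavacamten 3 gave 0.39, -0.30, 0.23 and -0.12. Without the libraries holding airway transcripts they were -0.99, -1.88, -2.42 and -1.03, with the smallest adjusted p at 0.0508 in edgeR for Tagln.

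The highest library was 5.72 times the lowest for Myh11, 5.62 times for Tagln, 17.4 times for Cnn1 and 3.25 times for Myl9. Of 13697 genes of at least 1 CPM, 93.2%, 93.1%, 97.4% and 84.5% had a smaller such ratio. The pericyte markers ran from 1.49 for Rgs5 to 3.51 for Abcc9. The summed level of the 4 smooth muscle markers was 161 to 376 CPM in WT control, 110 to 266 in R502W control and 115 to 500 in R502W mavacamten. Great vessel and valve markers, 6 genes with none called, summed to 119 to 223, 152 to 231 and 135 to 238 CPM in the same groups. R502W mavacamten 4 was the highest library in Myh11, Cnn1 and Myl9 and came after WT control 5 alone in Tagln. Airway and lung markers summed to 26.1 CPM in that library. They were highest in WT control 3, at 621 CPM, which held 104 CPM of Myh11 and 109 CPM of Tagln, and next in WT control 2, at 391 CPM, which held 38.4 and 42.0 CPM. Fat, Schwann cell and mesothelial markers (5, 5 and 4 genes) were also high in R502W mavacamten 4, at 809, 30.8 and 89.1 CPM, the highest treated values of all 3 lists. They were at their lowest among untreated R502W hearts in R502W control 3, at 229, 10.7 and 39.4 CPM, a library low in all 4 smooth muscle markers. WT control 1 went the same way, with the lowest WT values of these lists, at 284, 15.3 and 61.2 CPM. Its smooth muscle markers, at 161 CPM, were the lowest of WT control too. WT control 2 did not follow this. The Schwann cell and mesothelial sums were highest in WT control 2, at 31.8 and 164 CPM, with fat at 763. Its Myh11 was the lowest of all libraries, and its 4 smooth muscle markers summed to 174 CPM. R502W control 4 held 296, 16.0 and 73.0 CPM of these lists, beside 125 CPM of smooth muscle markers. Across groups, fat markers summed to 284 to 875 CPM in WT control, 229 to 705 in R502W control and 229 to 809 in R502W mavacamten. Mesothelial markers summed to 61.2 to 164, 39.4 to 80.0 and 34.3 to 89.1 CPM, and Schwann cell markers to 15.3 to 31.8, 10.7 to 20.1 and 11.4 to 30.8 CPM. The part of dissection content in the smooth muscle levels was not tested.

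**Figure D3:**
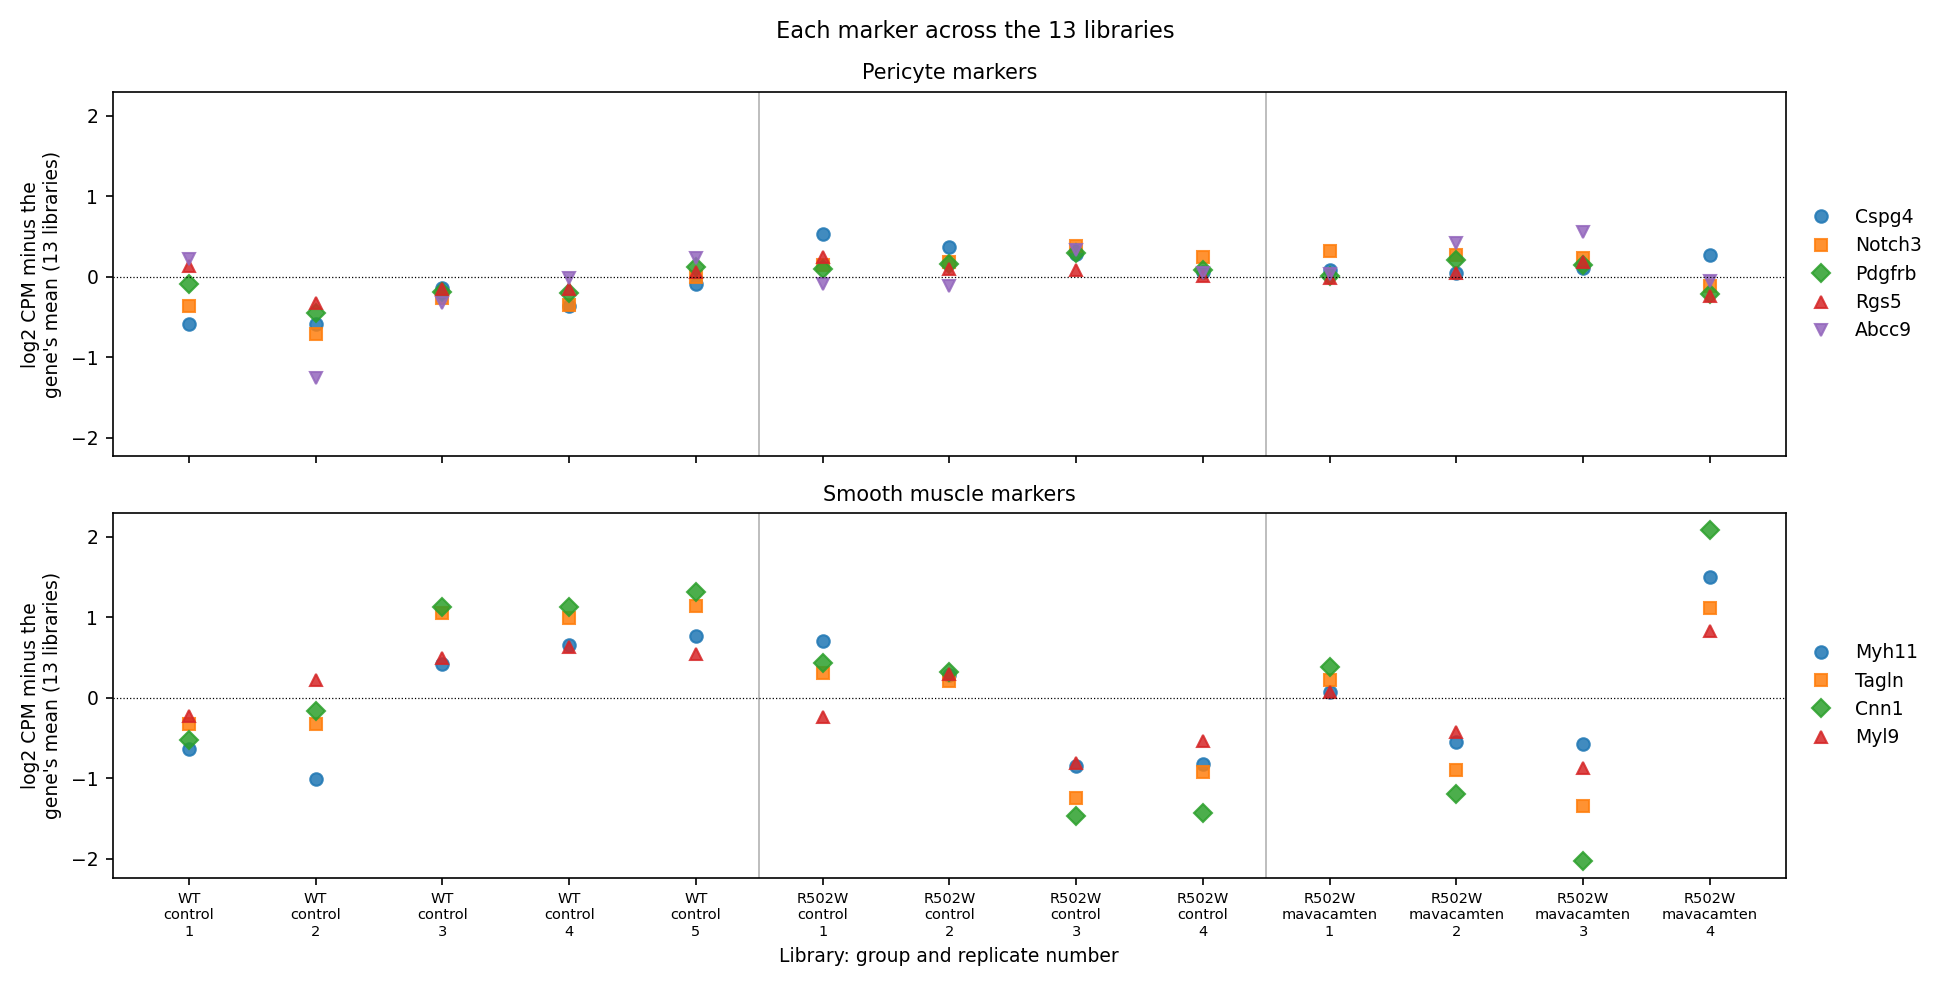
Each marker's log2 CPM minus its own mean over the 13 libraries (vertical axis), by library (horizontal axis), with pericyte markers above and smooth muscle markers below on the same scale. The smooth muscle markers move together from library to library within every group, and R502W mavacamten 4 is the highest in Myh11, Cnn1 and Myl9.

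Smooth muscle markers followed one another closely from library to library, and Notch3 followed Pdgfrb, while pericyte markers and smooth muscle markers mostly did not rise together. All 36 pairs of members were related over the 13 libraries, with p-values from 100000 permutations (two-sided) adjusted over the 36 pairs. The permutations did not keep the groups apart, so a difference between groups that 2 genes share can make a pair pass. The 6 pairs of smooth muscle markers had Pearson's r from 0.75 to 0.98 and Spearman's rho from 0.68 to 0.99. Adjusted permutation p-values of r ran from 0.00012 to 0.0147, and those of rho from 0.00018 to 0.0571. Without the 2 libraries farthest from the median of the first gene, r was 0.83 to 0.97, and within groups, with each group's mean removed, it was 0.83 to 0.98. Tagln and Cnn1 were the closest pair, at r = 0.98 and rho = 0.99.

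The 10 pairs of pericyte markers had r from 0.38 to 0.90 and rho from 0.10 to 0.77, and 8 pairs passed by r and 1 by rho. Within groups their r was 0.13 to 0.90, and without the 2 farthest libraries it was -0.00038 to 0.85. Notch3 and Pdgfrb were the closest of these, at r = 0.90 and rho = 0.77 (adjusted permutation p = 0.00054 and 0.0178), and kept r = 0.90 within groups and 0.85 without the 2 farthest libraries. Between Cspg4 and Notch3, r was 0.79 over all libraries (rho = 0.64, adjusted permutation p = 0.00612 and 0.0827) and 0.28 within groups. The 20 pairs of a pericyte with a smooth muscle marker had r from -0.64 to 0.34, and 1 passed by r and none by rho. That pair was Rgs5 and Myl9, at r = -0.64 and rho = -0.58 (adjusted permutation p = 0.0453 and 0.109), with -0.53 within groups and -0.61 without the 2 farthest libraries. Cspg4 differed from the other pericyte markers within groups, where its r was 0.81 with Myh11, 0.74 with Tagln, 0.68 with Cnn1 and 0.52 with Myl9, against pooled values of 0.34, -0.07, -0.02 and -0.22. The within-group values were not tested. All these points share library depth and scaling.

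Since the smooth muscle markers moved together, the promoters of Cnn1 and Myl9 are shown for the CArG box, the binding letters of serum response factor. Those of Myh11, Tagln and Pdgfrb were not searched. RefSeq windows of GRCm38.p6, from 250 bases before to 50 after each gene's start, were searched on both strands for 6 members. A CArG box was found in 1.63% of all 32851 windows. Of the 6 members, Myl9 alone had one, and it begins 161 bases before the start. Below are the first 200 bases of the windows of Myl9 (chr2:156775214-156775413, plus strand) and of Cnn1 (chr9:22099003-22099202, plus strand), with the box in capitals.
Myl9: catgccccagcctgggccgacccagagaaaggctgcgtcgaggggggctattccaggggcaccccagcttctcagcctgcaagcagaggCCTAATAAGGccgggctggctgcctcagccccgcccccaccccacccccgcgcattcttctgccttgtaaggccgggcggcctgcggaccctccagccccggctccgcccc
Cnn1: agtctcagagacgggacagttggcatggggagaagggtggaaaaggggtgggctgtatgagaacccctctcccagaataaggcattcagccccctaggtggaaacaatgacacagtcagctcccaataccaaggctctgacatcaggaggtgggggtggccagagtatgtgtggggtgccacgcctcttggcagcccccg
Cnn1 and Myl9 followed each other at r = 0.95 over the 13 libraries (rho = 0.92, adjusted permutation p = 0.00012 and 0.00018). The Cnn1 window held no CArG box. The windows of Cspg4, Notch3, Rgs5 and Abcc9 held none either. The core letters TGGGAA bound by the Notch partner Rbpj, searched on both strands, were in 25.6% of all windows and in 1 of the 6 members, Abcc9, beginning 221 bases before the start. A match describes letters only, and boxes outside these windows were not searched.

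Mavacamten against control within R502W hearts called no member. Over all 15000 genes, 0 percent were called higher and 0 percent lower by edgeR, and 525 genes (3.50 percent) had an unadjusted p under 0.05. DESeq2 called 1 gene higher and 5 lower, and limma-voom 0 and 2. All 9 members had an adjusted p of 1.00 in edgeR. Cspg4 stood at -0.19 ± 0.13 on the log2 scale (95% confidence interval -0.46 to 0.09) and Notch3 at -0.06 ± 0.13 (-0.34 to 0.23). Pdgfrb stood at -0.12 ± 0.12 (-0.37 to 0.14), Rgs5 at -0.11 ± 0.11 (-0.35 to 0.13) and Abcc9 at 0.21 ± 0.25 (-0.34 to 0.76). Side by side, Cspg4 stood 0.66 above WT control in R502W control and 0.47 above it in R502W mavacamten, and Notch3 stood 0.56 and 0.51 above it. These comparisons share the WT libraries, and the first shares the R502W control libraries with the treatment comparison.

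The intervals of the smooth muscle markers were wide. Myh11 stood at 0.40 ± 0.52 (95% confidence interval -0.72 to 1.52), Tagln at 0.35 ± 0.53 (-0.78 to 1.48), Cnn1 at 0.93 ± 0.74 (-0.66 to 2.52) and Myl9 at 0.31 ± 0.32 (-0.38 to 1.00). Their direction rested on R502W mavacamten 4, without which they were -0.30, -0.26, -0.30 and -0.09. Their direction also turned with limma-voom and without the libraries holding airway transcripts.

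**Figure D4:**
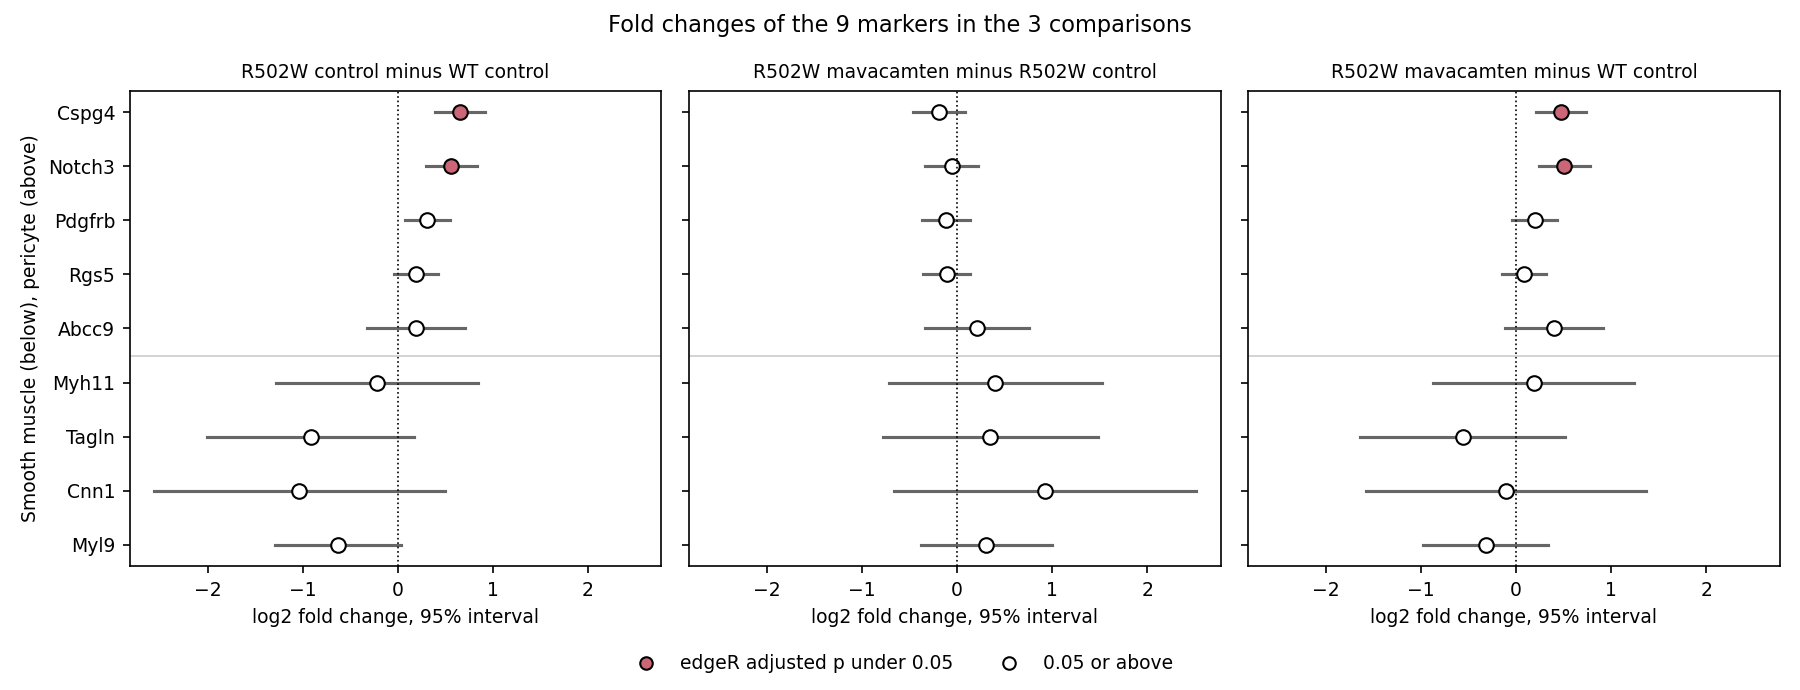
Log2 fold change (horizontal axis) of each marker in the 3 comparisons, with points for edgeR's estimate and bars for the 95% confidence interval, filled where the adjusted p is under 0.05. Cspg4 at 0.66 and Notch3 at 0.56 in R502W control against WT control have intervals clear of 0, and the intervals of the smooth muscle markers are wider than those of Cspg4, Notch3, Pdgfrb and Rgs5.

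Of 24 other mural cell markers, 2 rose and 1 fell in R502W control against WT control, a share near the 8.63 percent and 3.75 percent of all genes, with a list median of -0.13. Des, the intermediate filament protein desmin, which heart muscle makes in abundance, rose by 0.43 ± 0.10 (adjusted p = 0.0176 in edgeR), and its call ended in 4 of 11 settings and 2 of 13 fits with 1 library left out. Synpo2, an actin-bundling protein, rose by 0.45 ± 0.12 (0.0295), but lost the call with the length trend removed (0.16, adjusted p = 0.190 in edgeR). Sncg, gamma-synuclein, fell by 0.80 ± 0.21 (0.0266), and its call ended with the length trend removed (-0.65, adjusted p = 0.0807). Kcnj8, Vtn and Higd1b, the pericyte markers named above beside the members, stood at -0.17, 0.14 and 0.05. In treated hearts against WT they stood at -0.20, -0.13 and -0.27, and neither comparison called them. Acta2, smooth muscle actin, stood at -0.72 ± 0.39 (adjusted p = 0.244 in edgeR) in R502W control against WT control. None of the 24 was called in treated hearts against WT or against R502W control.

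PDGF ligands and the partner receptor did not pass any test. Pdgfb, the endothelial ligand of Pdgfrb, stood at 43.4 CPM in R502W control and 44.8 in WT control, a log2 fold change of -0.05 ± 0.11 (adjusted p = 0.822 in edgeR). The other 4 genes of this list stood between -0.18 for Pdgfa and 0.43 for Pdgfra, the fibroblast PDGF receptor. Channel partners of Abcc9 were likewise not called. Kcnj8, its pore subunit in mural cells, stood at -0.17 ± 0.12 and Kcnj11, the pore subunit in heart muscle, at 0.07 ± 0.12, and Abcc8, the other sulfonylurea receptor, at 0.02 ± 0.10.

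Among 23 other Notch pathway genes, 2 rose and 1 fell in R502W control against WT control, again near the share of all genes, and the list median was 0.03. Notch1, an endothelial Notch receptor, read 35.8 to 57.6 CPM in WT control, 70.7 to 81.5 in R502W control and 65.3 to 79.5 in treated hearts. Every R502W library lay above every WT library, and the log2 fold change was 0.57 ± 0.12 (adjusted p = 0.00807 in edgeR) without the drug and 0.55 ± 0.12 (0.0166) with it. Notch4, the other endothelial receptor, rose by 0.60 ± 0.13 (adjusted p = 0.00877 in edgeR) and, in treated hearts against WT, by 0.47 ± 0.13 (0.0383). The treated call of Notch4 ended in 7 of 11 settings and 10 of 13 fits with 1 library left out, and that of Notch1 in 3 and 2. Ncstn, a subunit of the gamma-secretase that cuts Notch receptors, fell by 0.20 ± 0.06 (0.0487) and lost the call in 7 of 13 fits with 1 library left out. Target genes did not pass, with Heyl, the Notch target of smooth muscle, at 0.34 ± 0.11 (adjusted p = 0.0641 in edgeR) and Hes1 at -0.35 ± 0.11 (0.0525). Ligands Jag1 and Dll4 stood at 0.09 and -0.11. With the length trend removed, Notch1 kept its genotype call at 0.26 (adjusted p = 0.0272 in edgeR), and Notch4 stood at 0.44 (0.0508). Without the 3 libraries low in Bmp10, Notch1 stood at 0.59 (adjusted p = 0.0609 in edgeR) and Notch4 kept its call at 0.68 (0.0388).

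Of 12 regulators around serum response factor and myocardin, 3 rose and none fell in R502W control against WT control, beside 8.63 percent and 3.75 percent of all genes, with a list median of 0.24. Myh11, Tagln and Cnn1, which they are known to drive, were not called, but their intervals were wide, such as -2.56 to 0.49 for Cnn1. A link between these regulators and the smooth muscle markers was not tested. Srf read 72.7 to 81.5 CPM in WT control, 105 to 119 in R502W control and 85.0 to 109 in treated hearts, with no R502W library inside the WT range. It rose by 0.50 ± 0.08 (adjusted p = 0.00226 in edgeR) without the drug and by 0.35 ± 0.08 (0.0225) with it. Myocd, expressed in smooth muscle and in heart muscle, read 11.5 to 32.3 CPM in WT control, 47.0 to 53.7 in R502W control and 42.0 to 54.7 in treated hearts. It rose by 0.96 ± 0.22 (adjusted p = 0.0126 in edgeR) and by 0.87 ± 0.22 (0.0297). The treated call of Myocd ended in 3 of 11 settings and 6 of 13 fits with 1 library left out, and that of Srf in 4 and 3. Mrtfb, a second Srf partner, rose by 0.50 ± 0.14 (0.0339), but not with the length trend removed (0.32, adjusted p = 0.0672). Srf kept its genotype call without the libraries low in Bmp10 (0.47, adjusted p = 0.0317 in edgeR), and Myocd lost it (0.93, adjusted p = 0.0918).

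Of 13 genes that control phosphorylation of myosin light chains such as Myl9, 3 rose and none fell in R502W control against WT control, beside the same shares of all genes, with a list median of 0.18. Arhgef12 and Ppp1r12a were also called in treated hearts against WT, and these calls ended in 2 and 7 of 11 settings and in 2 and 9 of 13 fits with 1 library left out. Arhgef12 rose by 0.91 ± 0.16 (adjusted p = 0.00358 in edgeR) and by 0.74 ± 0.16 (0.0171) in treated hearts against WT. The myosin phosphatase targeting subunits Ppp1r12a and Ppp1r12b rose by 0.47 ± 0.13 (adjusted p = 0.0296 in edgeR) and 0.54 ± 0.15 (0.0341), and both lost the call with the length trend removed (adjusted p = 0.0550 and 0.185). Arhgef12 kept it (0.62, adjusted p = 0.00216) but stood at 0.88 (adjusted p = 0.0523 in edgeR) without the libraries low in Bmp10. No gene of the Notch, Srf or myosin phosphorylation lists was called under mavacamten within R502W hearts.

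The genes whose library pattern was most like the members were found by Pearson's r of log2 CPM with the mean standardised pattern of each set, over 13 libraries and 13688 genes of at least 1 CPM. For the 5 pericyte markers they were Myo10 and Dag1 at r = 0.98 and Wnk1, Nlrp10 and Myo5b at 0.97. Within groups these r values were 0.94 to 0.97. Myo10 makes an unconventional myosin of filopodia and Dag1 makes dystroglycan, a muscle and vessel receptor for laminin, and Wnk1 is a kinase that controls ion transport. None of the 5 was on the mural marker lists used here. In R502W control against WT control, Myo10 (0.68), Dag1 (0.51), Wnk1 (0.75) and Nlrp10 (0.40) were called higher, with adjusted p-values from 0.0157 to 0.0345 in edgeR. Myo5b was not called (0.50, adjusted p = 0.0548 in edgeR). The 5 were picked for following the members, so these calls are not independent of the members' pattern. Wnk1, with 22825 exonic bases, is longer than every pericyte member, and Nlrp10, with 4504, is shorter than every one. Dag1, Myo5b and Myo10, with 6357, 9766 and 10122, lie within the members' range. For the 4 smooth muscle markers they were Acta2 at r = 0.98, Npnt at 0.97, Ccn3 at 0.95 and Tub and Sh3bgrl at 0.94, with 0.94 to 0.97 within groups. Acta2 read 129, 113, 246, 268 and 276 CPM in WT control, 181, 152, 75.0 and 94.6 CPM in R502W control, and 147, 96.6, 94.0 and 307 CPM in R502W mavacamten. Its highest library was R502W mavacamten 4, as for Myh11, Cnn1 and Myl9, and R502W control 3 and 4 and R502W mavacamten 2 and 3 lay below every WT library, as for Tagln and Cnn1.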

How the data were processed

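Poly(A)-selected, strand-specific libraries of whole mouse heart were sequenced, per the labels' protocols. The deposited table holds expected counts per Ensembl gene for 13 libraries, estimated by the authors with RSEM on GRCm38, per the submitters' processing notes, which also name cutadapt, FastQC and DESeq2. For the aligner, the strand setting and all versions: not given in the sources used here. Of the values, 5.76% were fractional, and expected counts were rounded. Symbols, coordinates and exonic lengths came from GENCODE M21 by gene ID.

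In R 4.3.3 with edgeR 4.0.16, filterByExpr (minimum count 10, minimum total 15) kept 15000 genes, TMM scaled the libraries, and a quasi-likelihood fit (each group its own mean, all 13 libraries) gave 3 contrasts. P-values were adjusted by Benjamini-Hochberg over all genes, and calls are adjusted p under 0.05. Levels are CPM on TMM-scaled library sizes. Log2 fold changes are edgeR's estimate ± SE. limma 3.58.1 and DESeq2 1.42.0 served as alternatives, beside other scalings, filters and library choices. The length trend of each library was removed by an offset from a lowess fit (span 0.3).

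Within groups, 22 pairs of libraries differed beyond sampling noise, with a chi-square per degree of freedom between 7.31 and 103.3. The members, the gene lists and the cell type markers were chosen with earlier results of these data known. All 9 members and every called gene of a list are named, and so are the 5 genes of highest r with each marker set. Other list genes, such as Heyl and Pdgfb, were named after their values were seen. Promoters are RefSeq's for GRCm38.p6.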

Additional observations from a re-analysis of the deposited data

How the results depend on the processing

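Counts of called genes moved with the processing, while the genotype call of Cspg4 kept its side of the threshold in all 24 alternatives. In R502W control against WT control, 843 genes were called higher with no filter on low counts, 778 with the length trend removed, and 286 (118 lower) without the libraries low in Bmp10, where 1 member was called. DESeq2 called 1083 lower. In treated hearts against WT, 527 were called higher and 213 lower with no filter, 142 and 74 with only the 2 groups compared, 377 higher with the length trend removed, 56 and 30 without the libraries low in Bmp10, 749 lower with DESeq2 and 220 lower without the libraries with airway transcripts. Within R502W hearts, DESeq2 called 1 and 5, limma-voom 2 lower, and the fit without airway libraries 8 and 17, none a member.

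In treated hearts against WT, Cspg4 missed the threshold with upper quartile factors (0.41), with no filter (0.45) and without airway libraries (0.38), each leaving 1 member called. Only the 2 groups compared gave 0.44 for Cspg4 and 0.48 for Notch3, the length trend removed 0.20 and 0.36, and the fit without libraries low in Bmp10 0.52 and 0.49, with 0 members called. Notch3 in the genotype comparison was 0.58 without the libraries low in Bmp10.

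Directions turned for values that were never called. Without airway libraries Abcc9 was -0.12 in the genotype comparison, Myh11 -0.99 in treated hearts against WT, and within R502W hearts Notch3 was 0.0060, Pdgfrb 0.012, Rgs5 0.0032, Myh11 -0.55, Tagln -0.85, Cnn1 -1.26, Myl9 -0.37 and Acta2 -0.40. With limma-voom Notch3 was 0.00063, Myh11 -0.073, Tagln -0.17, Cnn1 -0.072, Myl9 -0.020 and Acta2 -0.037 within R502W hearts, and Myh11 -0.55 in treated hearts against WT. Without libraries low in Bmp10, Rgs5 was -0.017 and Cnn1 0.35 in treated hearts against WT. The cause of these shifts was not tested.

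With 1 library left out, genotype calls ran from 603 to 1266 higher and 208 to 756 lower, and those of treated hearts against WT from 253 to 797 and 106 to 416, with 0 to 2 members. In that comparison Cspg4 ran from 0.38 to 0.54, Notch3 from 0.39 to 0.60, Rgs5 from -0.0065 to 0.12, Myh11 from -0.55 to 0.39 and Cnn1 from -1.37 to 0.23. Abcc9 ran from -0.023 to 0.30 in the genotype comparison. Within R502W hearts Notch3 ran from -0.10 to 0.031, Myh11 from -0.30 to 0.75, Tagln from -0.26 to 0.64, Cnn1 from -0.30 to 1.30, Myl9 from -0.089 to 0.56 and Acta2 from -0.16 to 0.59.

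The deviations of same-numbered libraries of different groups from their group means had r from -0.38 to 0.29. The labels do not say whether the numbers pair libraries. Deviations taken within groups of 4 or 5 cannot settle it. With the replicate block 742 genes were called higher and 221 lower in the genotype comparison, where Myh11 was 0.10, and 268 and 81 in treated hearts against WT, where Cspg4 was 0.54 (adjusted p = 0.0667 in edgeR) and 1 member was called. The thinnest value of any member was 28 expected counts, for Cnn1 in R502W mavacamten 3.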

Other observations

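Of 15 other G protein regulators of the family of Rgs5, 12 passed the filter on low counts. Rgs12 rose by 0.44 ± 0.13 on the log2 scale in R502W control against WT control (adjusted p = 0.0437 in edgeR's quasi-likelihood test), and the median of the 12 was -0.36. This 1 call among 12 genes was near the 8.63 percent of all genes called higher. Rgs12 lost the call in 11 of 13 fits with 1 library left out and with the length trend removed (0.25, adjusted p = 0.283). None of the 12 was called in treated hearts against WT or against R502W control.

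A list of 14 genes of mural cell recruitment through angiopoietin, sphingosine phosphate and TGF-beta signals held Cspg4 itself and Nes, which makes the intermediate filament nestin of endothelial and mural cells. Nes stood at 55.5 CPM in R502W control and 33.6 CPM in WT control, a rise of 0.72 ± 0.17 (adjusted p = 0.0172 in edgeR), and at 0.58 ± 0.17 (0.0552) in treated hearts against WT. It kept the genotype call with each single library left out (0.48 to 0.81) and with the length trend removed (0.62, adjusted p = 0.0439), and stood at 0.72 (adjusted p = 0.0701) without the libraries low in Bmp10. The other 12 genes were not called, and the list median was 0.17. These 2 genotype calls among 14 genes, 1 of them Cspg4, stand beside 8.63 percent of all genes called higher.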
